A study of Mus musculus with 8 samples.

Results

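Growth hormone acts on hepatocytes through its receptor Ghr, which carries no kinase of its own and signals through the bound kinase Jak2. Jak2 phosphorylates the transcription factors Stat5a and Stat5b, which enter the nucleus and switch on *Igf1*, *Igfals*, *Socs2* and *Cish*. The liver is the main source of circulating IGF1, which travels in blood bound to Igfbp3 and to the acid-labile subunit encoded by *Igfals*. Socs2 and Cish are feedback inhibitors that dampen receptor signalling, and Prlr, the prolactin receptor, is a related receptor that also uses Jak2 and Stat5. Fasting is known to make the liver resistant to growth hormone.

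The 10 genes described here (*Ghr*, *Prlr*, *Jak2*, *Stat5a*, *Stat5b*, *Igf1*, *Igfals*, *Igfbp3*, *Socs2* and *Cish*) were chosen by name, as the growth hormone receptor, IGF1 and STAT5 axis, from 55385 genes in the liver RNA-seq table. All 10 passed the filter on low values, which required 4 or more of the 8 livers to reach an FPKM (reads scaled by exon length and library total) of 0.5, as did 14340 genes in all. Livers came from 4 *Usp39*-HKO males, which carried *Usp39* alleles with floxed exon 2 together with Albumin-Cre, a Cre driven in hepatocytes, and from 4 control males that the labels call WT and the study calls control littermates. All mice were 5 weeks old, were fasted for 16 h, and came from lines on a C57BL/6J background. The study does not state whether the controls carried floxed alleles or Cre. Each library was 1 mouse, and the mouse names were A468, A472, A473 and A475 for controls and A469, A470, A471 and A474 for *Usp39*-HKO livers, the order in which values are given below.

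Libraries held between 8589636 and 10418450 counted reads. *Usp39* itself stood at 9.35, 10.4, 8.76 and 9.78 FPKM in controls and at 8.37, 8.63, 8.7 and 8.07 FPKM in *Usp39*-HKO livers (log2 fold change −0.41, SE 0.11, adjusted p = 0.0212, edgeR), a count over the whole gene that includes reads from other cell types. This call was lost without A475 (−0.41, adjusted p = 0.0547), without both A472 and A475 (−0.35, adjusted p = 0.13) and with library totals only (−0.18, adjusted p = 0.241). Hepatocyte markers summed to between 14821 and 16608 FPKM in controls and between 13915 and 17820 FPKM in *Usp39*-HKO livers. In both groups this matched the labelled tissue. Control A475 also held RNA of exocrine pancreas, whose 8 markers summed to 607 FPKM there and to at most 4.97 FPKM in any other liver. *Cux2*, a female-biased transcription factor that growth hormone regulates, is named here after its values were seen. Control A472 held it at 2.31 FPKM against 0.054 to 0.152 FPKM in the other controls. Counts of calls without A472, without A475 and without both are therefore given beside the results where they differ.

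STAT dimers bind the palindrome TTCNNNGAA, which reads the same on both strands. RefSeq promoters on GRCm38.p6, from 250 bases before to 50 bases after each annotated start, were matched for 9 of the 10 genes (not for *Socs2*) and gave 16 promoters, 4 of which held the palindrome, in *Cish*, *Igfals* and *Prlr*. That is 25% of these promoters against 8.3% of all 32851 promoters. These shares count promoters, and 2 of the 4 were starts of the same gene, *Igfals*. A share of genes was not counted over all genes, and the difference was not tested. The *Cish* promoter held 2 matches, which began at the start and 11 bases after it, and 0.457% of all promoters held at least 2. The windows with a match are shown with the palindrome in capitals. Of these 3 genes, *Igfals* and *Prlr* were called lower in *Usp39*-HKO livers, and the *Prlr* call was kept in 5 of 17 alternative analyses. *Cish* had higher values there but was not called (adjusted p = 0.0625, edgeR).
*Cish*, chr9:107296654-107296683, plus strand: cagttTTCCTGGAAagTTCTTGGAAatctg
*Igfals*, first start, chr17:24877598-24877627, plus strand: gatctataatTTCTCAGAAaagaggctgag
*Igfals*, second start, chr17:24878163-24878192, plus strand: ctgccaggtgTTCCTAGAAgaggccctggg
*Prlr*, chr15:10223786-10223815, plus strand: gcaaaatgagTTCTAGGAAtaagggatatc
The match lay 236 and 58 bases before the 2 *Igfals* starts and 110 bases before the *Prlr* start. A match describes these letters and is not a measured binding site.

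Both receptor genes, *Igfals* and *Stat5b* were lower in *Usp39*-HKO livers, while *Igf1* and the kinase gene *Jak2* did not pass the test. Of the 10 genes, 4 were called lower (*Igfals*, *Ghr*, *Prlr* and *Stat5b*), 0 were called higher and 6 were not called at an adjusted p under 0.05 in edgeR's quasi-likelihood test. Over all 14340 genes tested the same test called 1664 lower (11.6%) and 1561 higher (10.9%). The cutoff of the study (unadjusted p, and a fold size of at least 0.5 on the log2 scale), applied to the same fit, passed 5 of the 10 genes as lower and 1 (*Cish*) as higher, against 9.62% lower and 12.1% higher over all genes tested. DESeq2 also gave 5 lower and 1 higher. Over the 28412 genes with a count it called 1920 lower (6.76%) and 1824 higher (6.42%). That base includes genes below the filter, which all 10 genes passed, so these shares are not comparable with those over the 14340 genes. The median log2 fold change was −0.51 over the 10 genes and −0.0015 over all genes tested. Scaling by library totals alone, without the TMM factors, moved the median of all genes to 0.23 and changed the split of calls from 1561 of 3225 higher to 3509 of 4211 higher, so each fold change below is relative to the bulk of the genes.

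**Figure D1:**
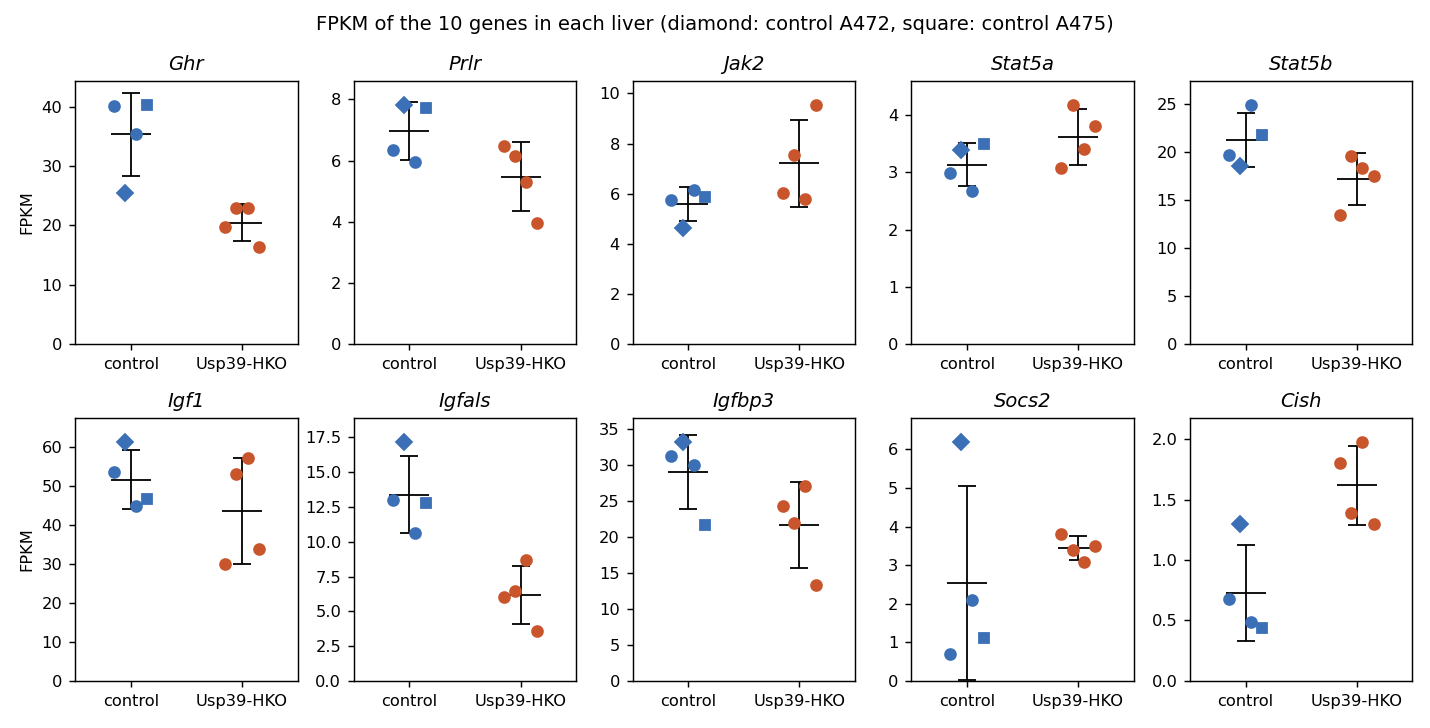
FPKM of the 10 genes (y axis, from 0) in each control and *Usp39*-HKO liver (x axis), 1 point per liver, with the mean and SD of each group as bars; diamonds mark control A472 and squares control A475. *Ghr* and *Igfals* separate the groups completely, and the control points of *Socs2* run from 0.708 to 6.2 FPKM.

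*Ghr* (ENSMUSG00000055737, chr15:3317760-3583492, minus strand of GRCm38) encodes the receptor itself. It stood at 40.1, 25.5, 35.4 and 40.3 FPKM in controls and at 19.8, 22.9, 22.9 and 16.3 FPKM in *Usp39*-HKO livers. Every *Usp39*-HKO liver was below every control, with control A472 the lowest of its group. The means were 35.4 ± 6.92 and 20.5 ± 3.15 FPKM (SD, n = 4 each). The log2 fold change was −1.01 (SE 0.18, 95% interval −1.40 to −0.63, adjusted p = 0.00306), that is 49.5% of the control level after TMM scaling, and the ratio of the FPKM means was 0.579. An exact two-sided permutation test on FPKM gave p = 0.0286, the smallest that 4 against 4 livers allow. Without both A472 and A475 the log2 fold change was −1.13 (adjusted p = 0.0107).

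*Prlr* (ENSMUSG00000005268, chr15:10177238-10349180, plus strand) encodes the prolactin receptor, a close relative of the growth hormone receptor on the same chromosome. Its FPKM was 6.36, 7.82, 5.97 and 7.73 in controls and 6.47, 6.15, 5.31 and 3.95 in *Usp39*-HKO livers. On FPKM the groups overlapped, and *Usp39*-HKO A474 was the lowest. After TMM scaling they did not overlap, although A469 was close to the controls. On log2(CPM + 1) relative to the control mean, *Usp39*-HKO livers were at −0.23 to −1.16 and controls at −0.20 to 0.17. On the log2 scale the fold change was −0.57 (SE 0.18, 95% interval −0.95 to −0.18, adjusted p = 0.0384), and the exact permutation p on FPKM was 0.143. This call was the least stable of the 4: it was kept in 5 of 17 alternative analyses, and it was lost without control A472 (−0.51, adjusted p = 0.0822), without control A475 (−0.53, adjusted p = 0.103) and with library totals only (−0.35, adjusted p = 0.11).

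Of the signal transducers, *Stat5b* was lower and *Stat5a* and *Jak2* did not pass the test. *Stat5b* (ENSMUSG00000020919, chr11:100780731-100850724, minus strand), the more abundant of both *Stat5* genes in liver, stood at 19.7, 18.5, 24.9 and 21.8 FPKM in controls and at 13.4, 19.6, 18.3 and 17.5 FPKM in *Usp39*-HKO livers. On FPKM, 3 of the *Usp39*-HKO livers were below every control and A470 was within the control range. After TMM scaling all of them were below every control. On log2(CPM + 1) relative to the control mean, they were at −0.34 to −0.78 and controls at −0.19 to 0.25. The log2 fold change was −0.54 (SE 0.13, 95% interval −0.83 to −0.26, adjusted p = 0.0122), or 68.6% of the control level. The call was lost with library totals only (−0.31, adjusted p = 0.11) and with limma on log2(FPKM + 1) (−0.29, adjusted p = 0.13), both of which leave out the TMM factors.

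*Stat5a* (ENSMUSG00000004043, chr11:100859351-100885169, plus strand) lies beside *Stat5b* on the opposite strand and encodes its near twin. Its FPKM was 2.99, 3.39, 2.68 and 3.49 in controls and 3.07, 4.18, 3.41 and 3.82 in *Usp39*-HKO livers, with overlapping groups. On the log2 scale the fold change was −0.03 (SE 0.12, 95% interval −0.30 to 0.24, adjusted p = 0.884) and was positive in 8 of 16 alternatives, among them library totals only (0.20). The reference transcript of *Stat5a* shared 12.6% of its bases with that of *Stat5b* at 97% identity or more over at least 150 bases, so some of their reads may have been left out or assigned to either gene. The sources used here do not state how reads matching several genes were counted.

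*Jak2* (ENSMUSG00000024789, chr19:29251828-29313080, plus strand) encodes the kinase bound to the receptor. It stood at 5.76, 4.63, 6.16 and 5.86 FPKM in controls and at 6.01, 7.55, 5.79 and 9.54 FPKM in *Usp39*-HKO livers. A470 and A474 were above every control, and the other *Usp39*-HKO livers lay within the control range. The log2 fold change was 0.12 (SE 0.14, 95% interval −0.19 to 0.43, adjusted p = 0.588).

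**Figure D2:**
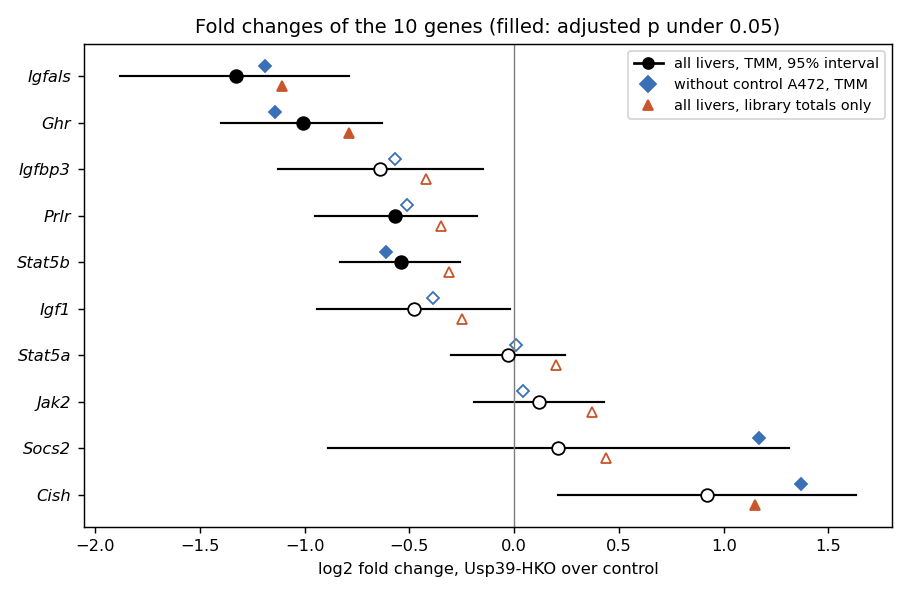
Log2 fold change between *Usp39*-HKO and control livers (x axis) for each of the 10 genes (y axis): circles with 95% intervals are from all 8 livers with TMM scaling, diamonds leave out control A472, triangles use library totals only, and filled symbols have an adjusted p under 0.05. *Igfals* and *Ghr* are filled under all 3 settings, and *Cish* and *Socs2* are filled without A472, where they reach 1.37 and 1.17, *Cish* also with library totals only (1.15). A472 held the highest control value of *Cish* and *Socs2*, and without A475, which is not shown, neither was called.

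Among the genes for circulating proteins, *Igfals* fell most, *Igfbp3* missed the threshold and *Igf1* varied widely between *Usp39*-HKO livers. *Igfals* (ENSMUSG00000046070, chr17:24865997-24882010, plus strand), whose product holds IGF1 and its binding protein in a long-lived complex, stood at 13, 17.2, 10.6 and 12.8 FPKM in controls and at 6.04, 6.47, 8.7 and 3.6 FPKM in *Usp39*-HKO livers. All *Usp39*-HKO livers were below all controls. The means were 13.4 ± 2.77 and 6.2 ± 2.09 FPKM (SD, n = 4 each). On the log2 scale the fold change was −1.33 (SE 0.25, 95% interval −1.88 to −0.79, adjusted p = 0.00401), or 39.7% of the control level, with an exact permutation p of 0.0286 on FPKM. Without both A472 and A475 it was −1.16 (adjusted p = 0.0407).

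*Ghr* and *Igfals* were the 2 genes of the 10 whose *Usp39*-HKO values all lay below the controls on the FPKM scale, against 4.81% of all genes tested. None of the 10 (0 genes) had all *Usp39*-HKO values above the controls, against 23.9% of all genes tested. The other 8 overlapped on that scale. FPKM leaves out the TMM factors, so these shares are not relative to the bulk of the genes. The median log2 fold change of all genes was 0.23 with library totals only and −0.0015 with TMM. After TMM scaling *Stat5b* and *Prlr* also had all *Usp39*-HKO values below the controls. The share over all genes was not counted on that scale. *Ghr* and *Igfals* were called lower in all 17 alternative analyses run.

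*Igf1* (ENSMUSG00000020053, chr10:87858265-87937042, plus strand) encodes the growth factor itself and was the most abundant of the 10 genes in both groups. Its FPKM was 53.7, 61.4, 44.9 and 46.7 in controls and 30.1, 53.2, 57.1 and 33.8 in *Usp39*-HKO livers. A469 and A474 were below every control, while A470 and A471 lay within the control range. The log2 fold change was −0.48 (SE 0.21, 95% interval −0.94 to −0.02, adjusted p = 0.127), and the exact permutation p on FPKM was 0.314. *Igf1* was called in 0 of 17 alternative analyses, DESeq2 and limma included, with adjusted p between 0.0536 and 0.373, and its interval includes a fall of nearly the size measured for *Ghr*.

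*Igfbp3* (ENSMUSG00000020427, chr11:7206086-7213923, minus strand) encodes the main carrier of IGF1 in blood and is known to be expressed by the non-parenchymal cells of the liver. It stood at 31.2, 33.2, 29.9 and 21.6 FPKM in controls and at 24.3, 21.9, 27 and 13.3 FPKM in *Usp39*-HKO livers. Control A475 was the lowest control and A474 the lowest of all livers. On the log2 scale the fold change was −0.64 (SE 0.23, 95% interval −1.13 to −0.15, adjusted p = 0.0622). Of 17 alternatives, 3 called it lower, among them DESeq2 (−0.65, adjusted p = 0.0312).

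Neither feedback inhibitor was called at an adjusted p under 0.05 with all livers. Both were called higher without control A472, which held the highest control value of each, so leaving it out raises both fold changes. Neither was called without control A475. *Socs2* (ENSMUSG00000020027, chr10:95385362-95417180, minus strand) stood at 0.708, 6.2, 2.09 and 1.12 FPKM in controls and at 3.82, 3.38, 3.09 and 3.49 FPKM in *Usp39*-HKO livers. The controls spanned an 8.75-fold range and the *Usp39*-HKO livers a 1.24-fold range, within which all of them lay above 3 controls and below A472. The SD of log2(CPM + 1) was 1.29 over controls, higher than in 99.9% of genes tested, and 0.17 over *Usp39*-HKO livers, higher than in 37.7%. The log2 fold change was 0.21 (SE 0.50, 95% interval −0.89 to 1.31, adjusted p = 0.805). Without A472 it was 1.17 (adjusted p = 0.0173). Without control A468 it was −0.10 (adjusted p = 0.912), without control A475 it was −0.04 (adjusted p = 0.968), and without both A472 and A475 it was 1.06 (adjusted p = 0.0797). The reference transcript of *Socs2* shared 10.7% of its bases with *Gm9847* at 97% identity or more over at least 150 bases. Some of its reads may have been left out or assigned to either gene.

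*Cish* (ENSMUSG00000032578, chr9:107296026-107302784, plus strand) was the least abundant of the 10 genes, with 27 to 121 reads per liver. Its FPKM was 0.679, 1.3, 0.49 and 0.434 in controls and 1.8, 1.39, 1.98 and 1.3 in *Usp39*-HKO livers. Of the *Usp39*-HKO livers, 3 were above every control, and A474 nearly equalled control A472. On the log2 scale the fold change was 0.92 (SE 0.33, 95% interval 0.21 to 1.63, adjusted p = 0.0625), and the exact permutation p on FPKM was 0.0571. Without A472 it was 1.37 (adjusted p = 0.00591), without A475 it was 0.73 (adjusted p = 0.162), and without both it was 1.22 (adjusted p = 0.035). In all, 7 of 16 alternatives called it higher, including DESeq2 (0.91, adjusted p = 0.0348). Of its exon bases, 11.5% overlap *Gm17040* and *Gm17041* on the opposite strand, and the sources used here do not say whether counting used the strand.

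**Figure D3:**
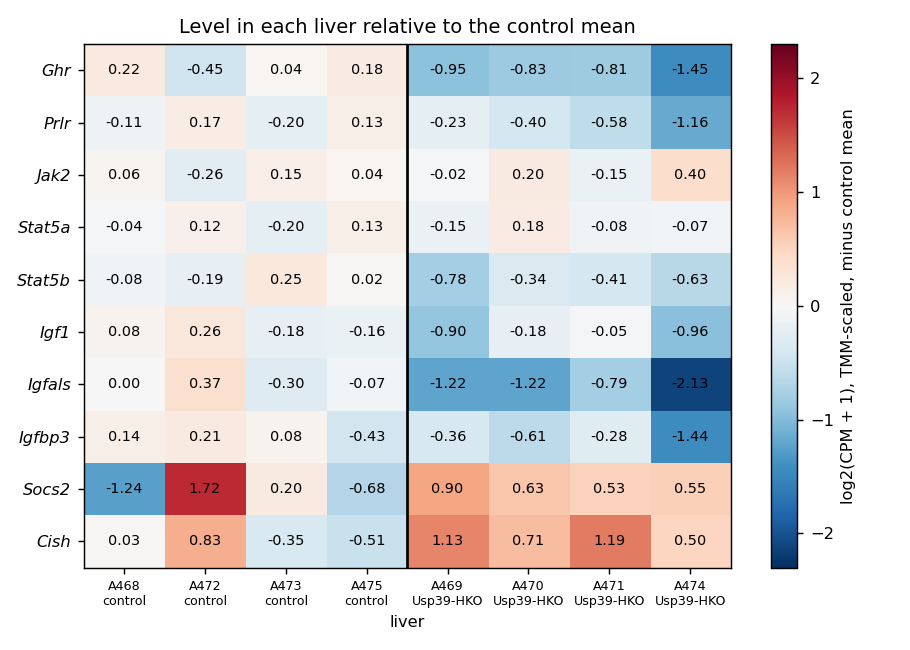
Each cell is the log2(CPM + 1) of 1 gene (y axis) in 1 liver (x axis), TMM-scaled, minus the mean of the 4 controls, shown as colour and number. In A472 *Socs2* (1.72) and *Cish* (0.83) are high while *Ghr* (−0.45) is low, and A474 has the lowest *Ghr* (−1.45), *Igfals* (−2.13), *Igfbp3* (−1.44) and *Prlr* (−1.16).

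Within the *Usp39*-HKO group, A474 stood lowest on log2(CPM + 1) for *Ghr*, *Prlr*, *Igf1*, *Igfals* and *Igfbp3*, while A469 was lowest for *Stat5b*. Relative to the control mean, *Igfals* in A474 was −2.13 and in A471 was −0.79. *Igf1* ranged from −0.96 in A474 to −0.05 in A471. The SD between *Usp39*-HKO livers was 0.47 for *Igf1*, 0.57 for *Igfals* and 0.53 for *Igfbp3*, which placed these 3 genes above 92.6%, 95.9% and 95% of genes tested. The same livers varied little in *Stat5a*, with an SD of 0.14. A474 also had the highest sums of Kupffer cell and macrophage markers (822 FPKM against 549 to 576 in the other *Usp39*-HKO livers) and of cholangiocyte markers (286 FPKM against 64.2 to 149). Their part in these values was not tested. Without A474 the log2 fold changes of *Ghr* and *Igfals* were still called, and 3 of the 10 genes were called in place of 4.

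By mean FPKM, controls ranked *Igf1* (51.7), *Ghr* (35.4), *Igfbp3* (29), *Stat5b* (21.2), *Igfals* (13.4), *Prlr* (6.97), *Jak2* (5.6), *Stat5a* (3.14), *Socs2* (2.53) and *Cish* (0.727). The ranges of neighbours overlapped between *Ghr* and *Igfbp3*, *Igfbp3* and *Stat5b*, *Prlr* and *Jak2*, *Stat5a* and *Socs2*, and *Socs2* and *Cish*. In *Usp39*-HKO livers the order was *Igf1* (43.5), *Igfbp3* (21.6), *Ghr* (20.5), *Stat5b* (17.2), *Jak2* (7.22), *Igfals* (6.2), *Prlr* (5.47), *Stat5a* (3.62), *Socs2* (3.44) and *Cish* (1.61). There *Jak2*, *Igfals*, *Prlr*, *Stat5a* and *Socs2* formed a run in which each gene overlapped the next, as did *Igfbp3*, *Ghr* and *Stat5b*. *Igf1* stood clear of its neighbour in both orders.

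Ratios of 2 genes inside the same library do not depend on scaling between libraries. The ratio of *Stat5b* to *Stat5a* was 6.6, 5.44, 9.31 and 6.26 in controls and 4.37, 4.68, 5.36 and 4.58 in *Usp39*-HKO livers. Every *Usp39*-HKO liver was lower, although A471 and A472 were close. On the log2 scale the means were 2.76 ± 0.33 and 2.24 ± 0.13 (SD, n = 4 each), a difference of −0.52 (exact permutation p = 0.0286, two-sided, adjusted p = 0.0857 over 6 ratios). The ratio of *Igfals* to *Igfbp3* was 0.418, 0.519, 0.354 and 0.594 in controls and 0.248, 0.296, 0.322 and 0.271 in *Usp39*-HKO livers. It too was lower in all of them, with log2 means of −1.11 ± 0.33 and −1.82 ± 0.16 (SD, n = 4 each) and a difference of −0.71 (exact permutation p = 0.0286, adjusted p = 0.0857). After adjustment neither difference passed 0.05.

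The remaining ratios overlapped between groups, with exact permutation p-values of 0.143, 0.114, 0.143 and 0.143 and an adjusted p of 0.143 for each. Their log2 differences were 0.49 for *Igf1* over *Ghr*, −0.70 for *Igf1* over *Igfbp1*, 1.72 for *Socs2* over *Ghr* and −0.41 for *Ghr* over *Prlr*. The *Socs2* to *Ghr* ratio was 0.0177, 0.243, 0.0589 and 0.0277 in controls and 0.193, 0.147, 0.135 and 0.214 in *Usp39*-HKO livers. Control A472 was above all *Usp39*-HKO livers, and the other controls were below all of them.

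**Figure D4:**
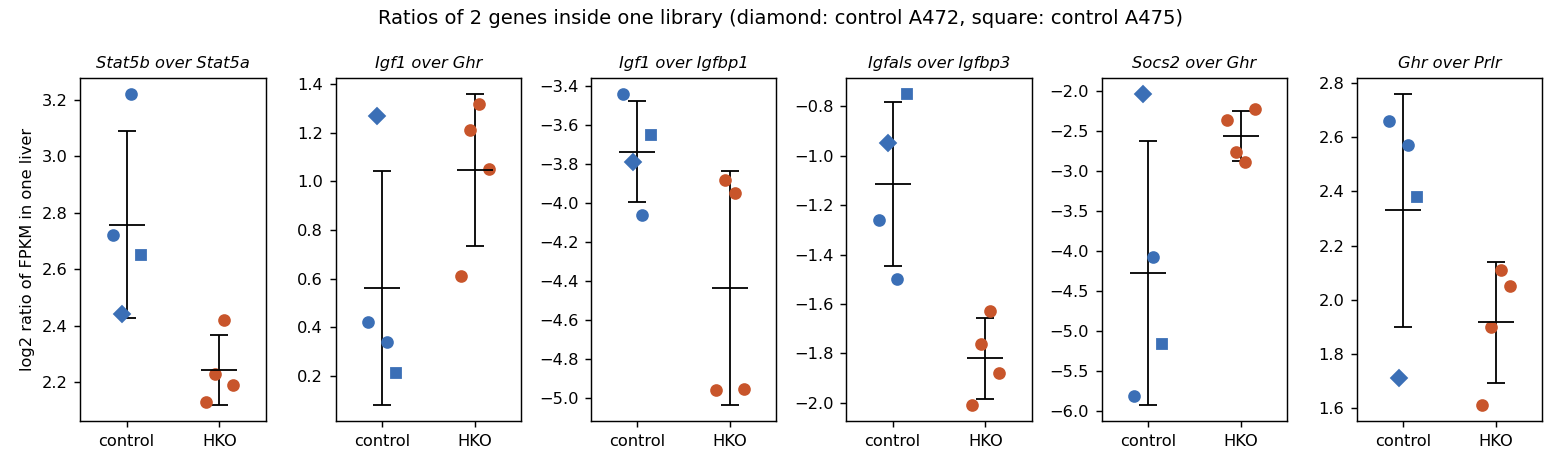
Log2 ratio of the FPKM of 2 genes in the same liver (y axis) for controls and *Usp39*-HKO livers (x axis), with the mean and SD of each group as bars; diamonds mark control A472 and squares control A475. The groups separate for *Stat5b* over *Stat5a* (difference −0.52) and for *Igfals* over *Igfbp3* (−0.71), and A472 is the highest of the widely spread controls in *Socs2* over *Ghr*.

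The counts of calls in the gene lists below stand beside 10.9% higher and 11.6% lower over all genes tested. The other ligands and binding proteins of IGF split, with *Igfbp7* higher, *Igfbp4* lower and 4 of the 6 tested not called. *Igfbp7*, a binding protein of low IGF affinity expressed in vessel walls, stood at 93.6, 115, 94.3 and 82.2 FPKM in controls and at 142, 177, 205 and 236 FPKM in *Usp39*-HKO livers (log2 fold change 0.73, SE 0.14, adjusted p = 0.00472). The groups did not overlap. *Igfbp4*, a hepatocyte-made inhibitor of IGF action, stood at 314, 362, 331 and 313 FPKM in controls and at 288, 228, 295 and 206 FPKM in *Usp39*-HKO livers (−0.60, SE 0.17, adjusted p = 0.0248). Its groups did not overlap either, but the call was lost without A472 (adjusted p = 0.0542), without A475 (0.0508), without both (0.121) and with library totals only (0.0559).

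*Igfbp1*, the binding protein that rises in fasting liver, was far above *Igf1* in every liver, with 581 to 848 FPKM in controls and 783 to 1047 FPKM in *Usp39*-HKO livers (log2 fold change 0.16, 95% interval −0.18 to 0.50, adjusted p = 0.497). *Igf1* made up between 0.0321 and 0.0924 of the *Igfbp1* level in any one liver. *Igfbp2* was at 422 to 654 FPKM in controls and 543 to 966 FPKM in *Usp39*-HKO livers (0.38, adjusted p = 0.173). With library totals only, *Igfbp2* (adjusted p = 0.0255) and *Igfbp5* (0.0419) were called higher. *Igfbp5* (0.50, adjusted p = 0.154) and *Igfbp6* (0.25, adjusted p = 0.714) were at most 3.37 and 2.12 FPKM in any liver. *Igf2*, the fetal ligand, did not reach the filter and was at most 0.0553 FPKM.

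Among receptors and adaptors for IGF and insulin, 10 genes were tested, of which *Grb10* was higher and *Insr* lower. *Insr*, the insulin receptor, stood at 24.3, 18.6, 25.2 and 23.1 FPKM in controls and at 15.6, 18.3, 13.6 and 16.3 FPKM in *Usp39*-HKO livers (log2 fold change −0.75, SE 0.13, adjusted p = 0.00313), with no overlap. *Grb10*, an adaptor that inhibits both receptors, stood at 0.995, 1.05, 1.18 and 1.36 FPKM in controls and at 2.35, 2.69, 2.21 and 4.96 FPKM in *Usp39*-HKO livers (1.15, SE 0.21, adjusted p = 0.00401), again with no overlap. *Igf1r*, the receptor for IGF1, was scarce in these livers at 0.412 to 0.701 FPKM in controls and 0.662 to 1.27 FPKM in *Usp39*-HKO livers (0.42, adjusted p = 0.181; 0.66, adjusted p = 0.0422 with library totals only). None of the 4 proteases and stanniocalcins that act on IGF binding proteins (*Pappa*, *Pappa2*, *Stc1*, *Stc2*) reached the filter, so 0 were tested.

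Of 7 other JAK and STAT genes tested, 2 were lower and 0 higher. These were *Stat2* (−0.43, adjusted p = 0.0138) and *Tyk2* (−0.38, adjusted p = 0.0445), which serve interferon receptors. Without A472 the calls were *Stat2* and *Stat3*, without A475 *Stat2* alone, and without both, or with library totals only, 0 of the 7 were called. *Stat3*, which carries interleukin-6 signals, was at 16.1 to 28.6 FPKM in controls and 13.4 to 24.4 FPKM in *Usp39*-HKO livers (−0.47, adjusted p = 0.123; without A472 −0.61, adjusted p = 0.0463). *Jak1* (−0.04, adjusted p = 0.822) was not called either.

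Of 13 other attenuators and modifiers of JAK2 signalling tested, 1 was higher, 0 were lower and 12 were not called. *Leprot*, whose product is known to reduce the amount of growth hormone receptor at the cell surface, stood at 13.3, 16.3, 12.4 and 12.8 FPKM in controls and at 24.9, 24.2, 29 and 31 FPKM in *Usp39*-HKO livers (log2 fold change 0.76, SE 0.12, adjusted p = 0.00184). All *Usp39*-HKO livers were above all controls, and the call held without A472 and A475. *Socs3*, an inhibitor induced by interleukin-6, was at 3.66 to 4.31 FPKM in controls and 4.21 to 6.71 FPKM in *Usp39*-HKO livers (0.37, adjusted p = 0.127). Without A472 the list had 3 genes higher, *Leprot*, *Ptpn1* and *Ptpn11*. With library totals only, 7 of the 13 were called higher, *Socs3* among them (0.60, adjusted p = 0.0185).

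*Ghr* and *Prlr* belong to the class I cytokine receptors, and of 10 other receptors of that class tested 3 were lower and 1 was higher. *Il6ra*, the interleukin-6 receptor, stood at 10.5, 10.5, 15.5 and 17.5 FPKM in controls and at 9.88, 7.5, 6.52 and 6.84 FPKM in *Usp39*-HKO livers (log2 fold change −1.04, SE 0.20, adjusted p = 0.00499), beside −1.01 for *Ghr*. *Il11ra1* (−0.48, adjusted p = 0.0115) and *Lifr* (−0.45, adjusted p = 0.0129) were also lower. *Csf2rb*, a receptor chain of myeloid cells, was higher (0.46, adjusted p = 0.0459), and this call was lost without A475 (0.40, adjusted p = 0.128). Without both A472 and A475 *Il6ra* was the 1 receptor still called, with *Il11ra1* at an adjusted p of 0.068 and *Lifr* at 0.0947. With library totals only, neither *Il11ra1* (adjusted p = 0.125) nor *Lifr* (adjusted p = 0.223) was called, and 3 receptors of the list were higher. Without A472 alone *Il13ra1* joined the genes called lower (−0.44, adjusted p = 0.047).

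**Figure D5:**
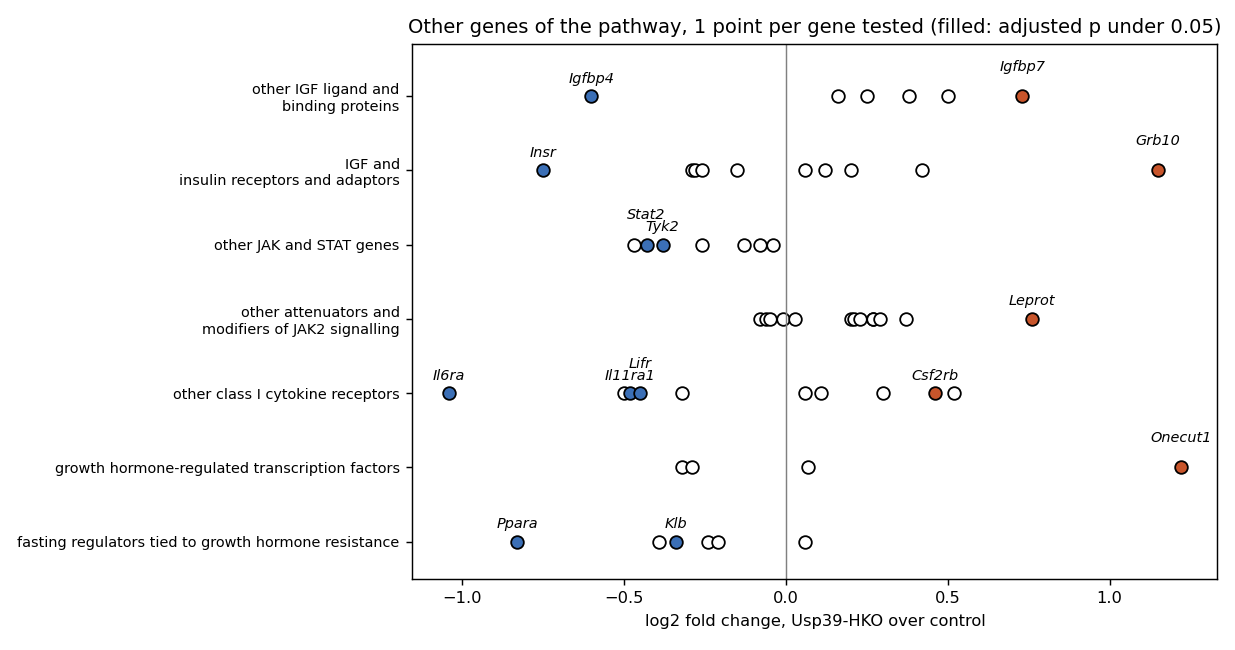
Log2 fold change between *Usp39*-HKO and control livers (x axis) of the other pathway genes tested, 1 point per gene, by list (y axis); filled points have an adjusted p under 0.05, blue lower and orange higher, and carry the gene name. Over these lists and the proteases, of which none was tested, 5 genes are higher, 9 lower and 42 not called, beside 10.9% higher and 11.6% lower over all genes tested.

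Of 4 transcription factors tested that growth hormone regulates in liver, *Onecut1* was higher, at 0.736 to 1.11 FPKM in controls and 1.72 to 3.75 FPKM in *Usp39*-HKO livers (log2 fold change 1.22, SE 0.28, adjusted p = 0.0108). Without both A472 and A475 its adjusted p was 0.087. *Bcl6*, a repressor that competes with Stat5, was not called (−0.32, adjusted p = 0.412). Of 6 regulators tied to growth hormone resistance in fasting, *Ppara*, the fatty acid sensor that directs the fasting response, was lower, at 57.5 to 76.1 FPKM in controls and 39.8 to 53.1 FPKM in *Usp39*-HKO livers (−0.83, SE 0.13, adjusted p = 0.00209). *Klb*, the co-receptor of Fgf21, was lower as well (−0.34, adjusted p = 0.0395), but not without A472 (adjusted p = 0.066), without A475 (0.105) or with library totals only (0.483). *Fgf21* itself ranged from 14.4 to 73.5 FPKM within the *Usp39*-HKO group and was not called (−0.21, adjusted p = 0.689). Over all 8 lists of pathway genes, 56 of 65 genes were tested, of which 5 were higher, 9 lower and 42 not called, with a median log2 fold change of −0.02. Over all genes tested, 10.9% were higher and 11.6% lower, with a median of −0.0015.

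The pulse pattern of growth hormone sets sex-biased liver genes through Stat5b. The lists of these genes were chosen with earlier results of these data known. Of 11 male-biased genes tested, 8 were lower, 0 higher and 3 not called (median −2.20), against 11.6% lower over all genes tested. Among the 8 were *Hsd3b5* (−3.47, adjusted p = 0.00405), *Serpina1e* (−2.96, adjusted p = 0.00766) and *Cyp4a12a* (−2.92, adjusted p = 0.0248). Without both A472 and A475 there were 7 male-biased genes called lower, and *Cyp4a12a* was no longer among them (−3.35, adjusted p = 0.0606). *Serpina1e* fell from 1133 to 1914 FPKM in controls to 54.9 to 615 FPKM in *Usp39*-HKO livers. Of 8 female-biased genes tested, 4 were higher, 0 lower and 4 not called (median 1.33), against 10.9% higher over all genes tested. Among those higher was *Cyp2a4*, at 10.7 to 17 FPKM in controls and 91.8 to 212 FPKM in *Usp39*-HKO livers (3.34, adjusted p = 0.000225). Without A472 the list had 5 genes higher and a median of 2.18, with *Acot3* added (2.12, adjusted p = 0.000652), and without A475 it had 3, with *Cyp3a44* lost (1.61, adjusted p = 0.0636). *Sult2a1* was at 0 to 0.396 FPKM in controls and 2.16 to 287 FPKM in *Usp39*-HKO livers, and *Cyp3a41a* at 0 to 1.52 and 9.87 to 19.8 FPKM. Many of these genes belong to families of near-identical copies, so their reads may be split between copies. *Sult2a1* passed the filter of 0.5 FPKM only through *Usp39*-HKO livers, and *Cyp3a41a* only through them and control A472. *Serpina12*, also called lower, passed it only through controls (at most 0.426 FPKM in *Usp39*-HKO livers), and *Hsd3b5* through controls and A471. The filter admitted these 4 genes through the group where they were high, so their direction is no separate support. The counts and medians of both lists include them. A471 had the highest *Serpina1e* (615 FPKM) and *Igfals* (8.7 FPKM) of the *Usp39*-HKO livers, and A474 the lowest of both (54.9 and 3.6 FPKM).

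Whole liver was sequenced, so fewer cells of a type and less RNA per cell cannot be told apart. Of 7 hepatocyte markers tested, *Apob* (−0.60, adjusted p = 0.0281) and *Cps1* (−0.48, adjusted p = 0.0443) were lower, 0 were higher, and the median was −0.29. Their 2 calls were lost without control A475 and with library totals only, where 0 were called. Markers of other cell types were higher: 6 of 8 for Kupffer cells and macrophages (301 to 389 FPKM summed in controls, 549 to 822 FPKM in *Usp39*-HKO livers), 7 of 8 for stellate cells and fibroblasts (76.5 to 87.2 and 120 to 237 FPKM) and 4 of 4 for cholangiocytes (26.4 to 28.7 and 64.2 to 286 FPKM). Without A472 these counts were 6, 7 and 3, without A475 they were 4, 6 and 3, and without both they were 2, 4 and 2. Endothelial markers, of cells that express *Igfbp3*, summed to 122 to 135 and 131 to 143 FPKM, with *Lyve1* (50.1% of the control level, adjusted p = 0.016) and *Stab2* (−0.37, adjusted p = 0.0481) lower and 6 of 8 not called. *Stab2* was not called without A472 (adjusted p = 0.102) or without A475 (adjusted p = 0.092), nor *Lyve1* without both (adjusted p = 0.0559). Of proliferation markers 5 of 6 were higher, of 2 erythroid markers tested 2 were lower (1 without both A472 and A475), and of 3 lymphoid markers and 1 exocrine pancreas marker tested 0 were called (the pancreas marker was called lower without A472). No measured marker of these lists was at 0 in all livers, and the part of these shifts in the values of the 10 genes was not tested.

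The 5 genes whose profile over the 8 livers was closest to that of *Ghr*, by root mean square difference of centred log2(CPM + 1), were *Car5a*, *Tmem19*, *Chpt1*, *Ttc39c* and ENSMUSG00000085558, at 0.0958, 0.103, 0.11, 0.117 and 0.122, against a median of 0.601 over all genes tested. *Stat5b* was the closest of the other axis genes to *Ghr* (0.333), followed by *Prlr* (0.36), *Igfbp3* (0.396), *Igfals* (0.415) and *Igf1* (0.425), and *Socs2* was the farthest (1.29). For *Igf1* close genes were *Npr2*, *Iigp1*, *Sec14l2* and *Gm31333*, at 0.116, 0.121, 0.143 and 0.15, against a median of 0.469. Of the axis genes, *Stat5b* (0.302) and *Igfbp3* (0.327) came nearest to *Igf1*. These distances are descriptions over 8 livers.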

How the data were processed

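Liver RNA of 8 mice was sequenced as 1 paired-end library each. Per the labels and the study's methods, the authors trimmed reads with Trim Galore (version 0.6.1), checked them with FastQC (version 0.11.9), aligned them to mm10 with HISAT2 and counted reads per gene with featureCounts. The annotation release, strandedness and treatment of reads matching several genes are not given in the sources used here. The authors deposited unnormalized counts for each gene and mouse, and FPKM, which the counts, exon lengths and library totals give back. It also holds columns of the authors' DESeq2 comparison (a mean normalized signal, log2 fold changes, their standard errors and Wald statistics as scores, and p-values), which were not used.

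The 55699 entries of the table held 55385 gene identifiers, and the 314 repeated entries were read once. The 14340 genes that reached an FPKM of 0.5 in 4 or more livers were tested on the counts with edgeR 4.0.16 in R 4.3.3 (quasi-likelihood, TMM, 2 groups, no covariates), and p-values were adjusted (Benjamini-Hochberg) over the genes tested. The script was tested on simulated data. The labels name no batch, and separate mice are the replicates. A floor of 3 counts corresponded to 0.288 to 0.349 CPM, which covers counting error only. Alternatives were DESeq2 1.42.0, limma 3.58.1 on log2(FPKM + 1) and log2(FPKM + 0.1), other scalings and filters, each liver left out in turn, and, chosen after seeing the data, both A472 and A475 left out. Coordinates are from GENCODE vM21 on GRCm38. The 10 genes and all gene lists were chosen with earlier results of these data known.

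Named genes were all 10 genes of the axis, up to 3 called higher and 3 called lower with the largest fold change in each other pathway or sex-biased list, all other IGF binding proteins and *Igf2*, genes named whatever their values (*Igf1r*, *Insr*, *Stat3*, *Jak1*, *Socs3*, *Bcl6*, *Fgf21* and *Usp39*), the 5 closest profiles to *Ghr* and to *Igf1*, and markers of cell types known to express one of the 10. Of the genes this rule names, 2 are not reported here.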

Additional observations from a re-analysis of the deposited data

Results flagged for a closer look

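In each group of 4 livers, a liver counted as standing apart when its gap to the nearest other liver exceeded 0.829 of the range of the group. Of 152 groups checked, over the 10 genes, the other pathway genes, *Cux2* and the summed markers, 11 did, where chance flags about 1 in 20. None of the 10 genes was among them.

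In control A475 the exocrine pancreas markers summed to 607 FPKM against 2.92 to 3.52 in the other controls, and *Grb2* (18.1 FPKM against 19.2 to 19.4) and *Socs5* (1.38 FPKM against 1.77 to 1.8) were low. In control A472 *Cux2* was at 2.31 FPKM against 0.054 to 0.152, and *Ptpn11*, a phosphatase of receptor signalling, at 18.7 FPKM against 14.2 to 14.9. In control A468 *Irs1* was at 5.18 FPKM against 2.94 to 3.18, and in control A473 *Ptpn6* at 11.5 FPKM against 13.5 to 13.9.

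In *Usp39*-HKO A474 the Kupffer cell and macrophage markers summed to 822 FPKM against 549 to 576 in the other *Usp39*-HKO livers. In A470 *Grb14* was at 18.9 FPKM against 13.6 to 14.2 and *Sh2b3* at 8.3 FPKM against 10.3 to 10.4. In A469 *Stat6* was at 15.5 FPKM against 24 to 25.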

How the results depend on the processing

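Over 167 values of the 10 genes under alternatives, 131 kept their direction and their side of the threshold, 15 lost the call, 11 gained one and 10 changed sign. *Ghr* and *Igfals* kept their calls throughout. The sign changes concerned *Stat5a*, with values of 0.03 (upper-quartile scaling), 0.20 (library totals only), 0.16 and 0.20 (limma on log2(FPKM + 1) and on log2(FPKM + 0.1)), 0.10 without both A472 and A475 and −0.11 to 0.03 with 1 liver left out, and *Socs2*, −0.10 to 1.17 with 1 liver left out, none of them called except *Socs2* without A472. The count of genes called, 3225 as reported, was 1595 with a mean FPKM of at least 5, an alternative that tests 6672 genes, and 1676 without both A472 and A475, which leaves 2 controls. With 1 liver left out it ranged from 1931 (without A473) to 3510 (without A469), and was 2043 without A475 and 2094 without A474. The number of the 10 genes called ranged from 3 to 6. The log2 ratios inside a library kept their direction in all 54 recomputed values. No paired analysis was possible because the labels give no replicate numbers shared between the groups. With 27 to 121 reads per liver, *Cish* is the gene whose values counting error limits most.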
